A study of Homo sapiens with 6 samples.

Results

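Fibroblast growth factors (FGFs) and their receptors were followed in D283 Med cells, a human medulloblastoma line of the Group 3 subtype with an amplified MYC gene. The genes were a given list of 10, found by symbol among 60664 genes. They comprised 5 ligand-family genes (FGF2, FGF8, FGF9, FGF11 and FGF13) and 5 receptor genes (FGFR1, FGFR2, FGFR3, FGFR4 and FGFRL1). RNA was sequenced in 6 mRNA libraries, and all cells had received an LNA GapmeR by transfection, a short antisense strand through which RNase H cuts the transcript it pairs with. In 3 libraries, labelled SCR, the GapmeR was a scrambled control. In the other 3, labelled KD, its target was lncMB3, a long non-coding RNA. The study asked which transcripts depend on lncMB3. The level of lncMB3 itself was not analysed here, so directions follow the group labels, and loss of lncMB3 cannot be told apart from other effects of the GapmeR. One cell line was used, and the labels name no separate cultures, so the p-values here rest on library-to-library spread that could be purely technical.

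Secreted FGFs bind heparan sulphate chains on the cell surface together with receptor tyrosine kinases of the FGFR family. The activated receptor recruits the adaptor FRS2 and signals through RAS to the kinases MEK and ERK, which switch on ETS transcription factors and feedback inhibitors such as the Sprouty proteins. A separate branch of the ligand family, the FGF homologous factors (FGF11 to FGF14), stays inside the cell, is not known for activating these receptors in the classical way, and binds voltage-gated sodium channels. In the embryonic hindbrain, FGF8 patterns the territory from which the cerebellum arises.

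Total counts ran from 7765826 in KD library 1 to 20035834 in SCR library 2, so low genes were measured least precisely in KD library 1. Of 14673 genes that passed the low-count filter, 31.7% were called at an adjusted p under 0.05 by edgeR's quasi-likelihood test, 2328 higher and 2329 lower in KD. With upper-quartile scaling the split was 1773 higher and 2803 lower. Group 3 markers of the line were mostly present and partly shifted: the sum of 9 was 2886 to 3130 CPM in SCR and 2718 to 2804 CPM in KD (CPM is a gene's count relative to the scaled library size). Of 8 tested, 5 fell, OTX2 and NEUROD1 among them, 1 rose (GABRA5) and 2 were not called, while EYA1 had 1 to 3 counts in each library. Markers of other cell types were low or absent: CDH5, AIF1 and COL3A1 were at 0 in all libraries, and the summed level of 4 endothelial markers was 1.47 to 2.52 CPM in SCR and 0.886 to 1.82 CPM in KD. Mesenchymal markers were lower in KD as a sum (35.2 to 38.8 CPM against 27.4 to 32.8 CPM over 6 genes), as were epithelial markers (48.6 to 63.0 CPM against 30.4 to 39.0 CPM over 5 genes, mostly from KRT8). The glial markers MBP and MOG were at 0 in all libraries, and the sum of 5 immune markers was 1.51 to 2.25 CPM in SCR and 1.43 to 2.55 CPM in KD. The part of these shifts in the results below was not tested.

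Of the 10 genes, 8 passed the low-count filter and 2, FGF8 and FGF9, did not. Among the 8, 3 fell in KD (FGF13, FGF11 and FGFR2), 2 rose (FGFR3 and FGF2) and 3 were not called (FGFR1, FGFR4 and FGFRL1). The share called was 62.5% of the 8 genes, against 31.7% of all genes tested (15.9% in each direction). The median log2 change of the 8 was -0.10, and that of all genes tested was 0.00028. The SCR and KD libraries did not overlap for the 5 called genes, as for 46.0% of all genes tested. The fall of FGF13 was the only one of the 8 changes beyond 2-fold: 224 genes (1.53%) of those tested changed by more in either direction. For FGFR3, which had the largest rise, 20.5% of genes changed by more. In bulk RNA, fewer cells that express a gene and less RNA per cell cannot be told apart.

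**Figure D1:**
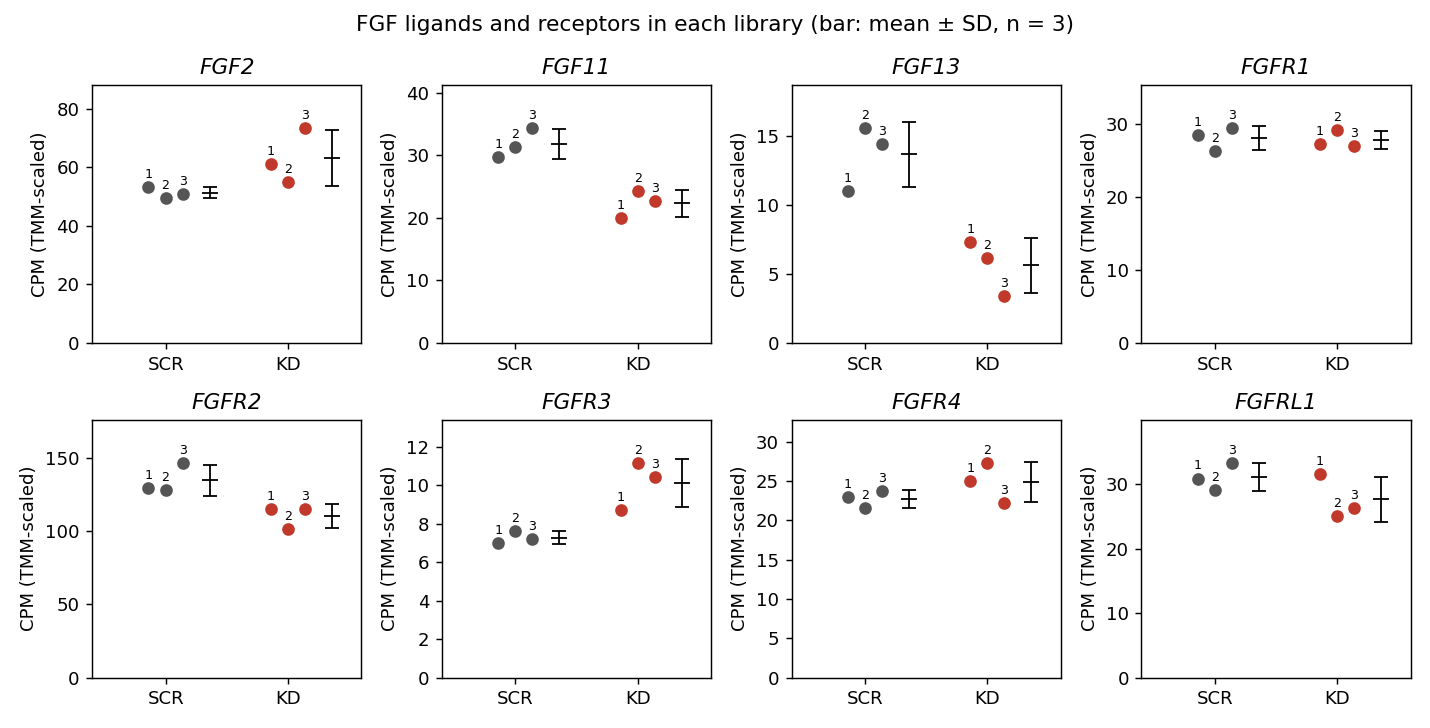
Level of the 8 tested FGF ligand and receptor genes in each library, in CPM on TMM-scaled library sizes (y axes start at 0); points are libraries with their replicate number, and the bar beside each group is its mean ± SD (n = 3). FGF13, FGF11 and FGFR2 lie lower in every KD library than in every SCR library, FGFR3 and FGF2 lie higher, and the groups overlap for FGFR1, FGFR4 and FGFRL1.

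The largest change was that of FGF13, an intracellular FGF homologous factor that binds sodium channels and microtubules (ENSG00000129682, chromosome X, 138614731 to 139222777, minus strand, GRCh38). Its level was 11.01, 15.55 and 14.36 CPM in SCR libraries 1 to 3 and 7.28, 6.16 and 3.39 CPM in KD libraries 1 to 3, from counts of 188, 318 and 257 and of 56, 118 and 65. Every KD library was below every SCR library, with KD library 3 lowest and SCR library 1 the control nearest to KD. The mean went from 13.6 ± 2.36 to 5.61 ± 2.005 CPM (SD, n = 3 each), a 2.56-fold fall (log2 change -1.36 ± 0.21 SE, 95% interval -1.81 to -0.90, edgeR adjusted p = 0.000513). Leaving out any 1 library kept the call, with log2 changes of -1.52 to -1.06. FGF13 spans 608047 bases, and with offsets for gene span its log2 change was -0.99 (adjusted p = 0.00325). Its antisense neighbour FGF13-AS1, which shares 167 exonic bases with it on the other strand, had 3, 13 and 6 counts in SCR and 0, 5 and 1 in KD. Whether the counting used strand is not stated in the sources, so reads of the pair in those bases may be mixed.

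FGF11, another FGF homologous factor (ENSG00000161958, chromosome 17, 7438273 to 7444937, plus strand), fell by a smaller amount. It was at 29.7, 31.2 and 34.4 CPM in SCR and 19.9, 24.3 and 22.7 CPM in KD, so the groups were apart and the libraries within each were close. The mean went from 31.8 ± 2.36 to 22.3 ± 2.23 CPM (SD, n = 3 each), a 1.41-fold fall (log2 change -0.50 ± 0.10 SE, 95% interval -0.71 to -0.28, edgeR adjusted p = 0.00259). All 14 alternatives at the 0.05 threshold kept this call, with log2 changes of -0.56 to -0.43. An unnamed transcript on the same strand, ENSG00000262880, shares 1420 exonic bases with FGF11 and also fell, from 20, 46 and 20 counts to 6, 13 and 15 (edgeR adjusted p = 0.0400). That call was lost without SCR library 2 (adjusted p = 0.282, log2 change -0.62 in place of -1.04), KD library 1 (0.0750, -1.06), KD library 2 (0.118, -0.96) or KD library 3 (0.0975, -1.10), with DESeq2 (0.0997) and with limma-voom (0.0562). Another, ENSG00000272884, shares 4175 exonic bases and had 15, 5 and 22 counts in SCR and 0, 6 and 0 in KD. FGF11 itself had 508 to 639 counts in SCR and 153 to 466 in KD, well above the counts of either overlapping transcript. The falls of the 2 homologous factors were not tested against each other. The ratio of FGF11 to FGF13 counts was 2.702, 2.009 and 2.393 in SCR and 2.73, 3.95 and 6.69 in KD. Every KD ratio was above every SCR ratio, though KD library 1 lay close to SCR library 1.

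Because these 2 genes fell together and are the calls that every alternative kept on the lower side, the sequences before their annotated starts are shown, from RefSeq (GRCh38.p14), 5′ to 3′ on the gene's strand. FGF13 has 2 listed starts and FGF11 has 3, of which the most upstream is shown, and gene-level counts do not tell which start was used. The first FGF13 sequence (chrX:139205024-139205273) lies before the distal start and the second (chrX:138739354-138739603) before the proximal one, and the FGF11 sequence (chr17:7438048-7438272) ends where the first annotated exon begins. Capitals mark the matches to the motifs searched.
FGF13 distal start: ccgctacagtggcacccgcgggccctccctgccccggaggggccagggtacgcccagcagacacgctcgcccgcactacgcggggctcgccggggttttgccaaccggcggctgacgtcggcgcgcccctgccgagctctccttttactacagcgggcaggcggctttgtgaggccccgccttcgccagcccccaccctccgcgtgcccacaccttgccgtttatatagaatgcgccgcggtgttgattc
FGF13 proximal start: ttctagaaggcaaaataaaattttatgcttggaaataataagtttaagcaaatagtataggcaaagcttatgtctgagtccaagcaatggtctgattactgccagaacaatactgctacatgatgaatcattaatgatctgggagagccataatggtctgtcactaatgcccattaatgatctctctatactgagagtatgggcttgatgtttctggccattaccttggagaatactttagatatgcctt
FGF11 first start: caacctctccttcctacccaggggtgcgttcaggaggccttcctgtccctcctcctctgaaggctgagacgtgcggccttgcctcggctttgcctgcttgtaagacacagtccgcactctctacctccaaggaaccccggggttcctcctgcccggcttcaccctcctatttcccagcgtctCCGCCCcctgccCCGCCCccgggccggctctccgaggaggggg

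The 2 FGF13 sequences differ in base composition. The distal one is 70.4% G and C with 29 CpG dinucleotides, and the proximal one is 36.4% G and C with 0. The medians of 35116 windows of 250 bases before RefSeq starts were 58.0% and 11. The FGF11 sequence is 66.7% G and C with 13 CpG dinucleotides in 225 bases. Searched on both strands were the GC box GGGCGG (found in 42.6% of all windows), the CCAAT box CCAAT (32.0%), the E-box CACGTG (6.34%), the core TGATGNAA of ATF4 elements (3.14%) and the cyclic AMP response element TGACGTCA (1.65%). FGF11 held 2 matches to the GC box, read as CCGCCC on this strand, and the FGF13 sequences held no match to any of the 5. A match is a description of letters, not a measured binding site.

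FGF2, basic FGF, is a heparin-binding ligand that cells release without a signal peptide and a potent mitogen for neural progenitors (ENSG00000138685, chromosome 4, 122826708 to 122898236, plus strand). It was at 53.3, 49.6 and 51.0 CPM in SCR and 61.3, 54.8 and 73.4 CPM in KD. The groups did not overlap, but KD library 2 exceeded SCR library 1 by little, and KD library 3 was the highest. The mean went from 51.3 ± 1.87 to 63.2 ± 9.46 CPM (SD, n = 3 each), a 1.23-fold rise (log2 change 0.30 ± 0.10 SE, 95% interval 0.08 to 0.52, edgeR adjusted p = 0.0382). This call was lost without SCR library 2 (adjusted p = 0.139, log2 change 0.28), SCR library 3 (0.0915, 0.30), KD library 1 (0.0663, 0.33) or KD library 3 (0.252, 0.16), and with upper-quartile scaling (0.0822, 0.24). FGF2 shares 804 exonic bases with NUDT6 on the other strand. NUDT6 had 132, 138 and 132 counts in SCR and 57, 121 and 111 in KD and was not called (edgeR adjusted p = 0.348), against 911 to 1015 and 471 to 1409 counts of FGF2.

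FGF8 and FGF9, both secreted ligands, were at or near the detection limit. FGF8 (chromosome 10, 101770130 to 101780369) had 4, 9 and 2 counts in SCR and 1, 12 and 9 in KD, or 0.112 to 0.440 CPM and 0.130 to 0.626 CPM. These ranges overlapped, and a difference was not detectable at this depth. FGF9 (chromosome 13, 21671383 to 21704498) had 0 counts in all 6 libraries. A count of 0 allows up to 3 counts, which is 0.147 to 0.176 CPM in the SCR libraries and 0.156 to 0.390 CPM in the KD libraries, a limit that covers counting error only.

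FGFR2 was the receptor gene with the highest level per length. This receptor tyrosine kinase is spliced into epithelial and mesenchymal forms that bind different ligands, which gene-level counts do not separate (ENSG00000066468, chromosome 10, 121478334 to 121598458, minus strand). It was at 129, 128 and 147 CPM in SCR and 115, 101.1 and 115 CPM in KD, with every KD library lower and SCR library 3 the highest. The mean went from 134.6 ± 10.5 to 110.3 ± 7.89 CPM (SD, n = 3 each), a 1.22-fold fall (log2 change -0.29 ± 0.09 SE, 95% interval -0.48 to -0.10, edgeR adjusted p = 0.0230). The call was lost without SCR library 3 (adjusted p = 0.114, log2 change -0.22), without KD library 2 (0.0652, -0.23) and with gene-span offsets (0.0602, -0.20).

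FGFR3, a receptor kinase known for restraining the growth of bone and expressed in neural progenitors (ENSG00000068078, chromosome 4, 1793293 to 1808872, plus strand), rose. It was at 6.97, 7.63 and 7.21 CPM in SCR and 8.72, 11.2 and 10.4 CPM in KD. The 3 SCR libraries were close together, and each KD library was above them. The mean went from 7.27 ± 0.335 to 10.1 ± 1.26 CPM (SD, n = 3 each), a 1.41-fold rise (log2 change 0.50 ± 0.13 SE, 95% interval 0.21 to 0.78, edgeR adjusted p = 0.0121). All 14 alternatives at the 0.05 threshold kept this call, with log2 changes of 0.42 to 0.57 and adjusted p from 0.00759 to 0.0466. FGFR2 and FGFR3 thus moved in opposite directions. Within each library, where no scaling enters, the ratio of FGFR3 to FGFR2 counts was 0.0539, 0.0596 and 0.0491 in SCR and 0.0759, 0.110 and 0.0908 in KD. Every KD ratio was above every SCR ratio. That separation follows from FGFR3 being higher and FGFR2 lower in every KD library, so it is no separate support.

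The other 3 receptor genes were not called. FGFR1, a receptor kinase broadly expressed in the nervous system (ENSG00000077782, chromosome 8, 38400215 to 38468834, minus strand), was at 28.5, 26.4 and 29.5 CPM in SCR and 27.3, 29.2 and 27.0 CPM in KD. The groups overlapped, and the log2 change was -0.01 ± 0.09 SE (95% interval -0.21 to 0.19, edgeR adjusted p = 0.941). LETM2, which shares 138 exonic bases with FGFR1 on the other strand, had only 15 to 41 counts in any library. FGFR4, the kinase that with the co-receptor KLB binds FGF19 (ENSG00000160867, chromosome 5, 177086886 to 177098144), was at 22.9, 21.5 and 23.8 CPM in SCR and 24.97, 27.33 and 22.26 CPM in KD. KD libraries 1 and 2 were above the SCR range and KD library 3 within it (log2 change 0.13 ± 0.10 SE, 95% interval -0.09 to 0.35, edgeR adjusted p = 0.367). FGFRL1, a receptor that lacks the kinase domain (ENSG00000127418, chromosome 4, 1009936 to 1026897), was at 30.9, 29.1 and 33.3 CPM in SCR and 31.61, 25.04 and 26.32 CPM in KD. Here KD library 1 lay within the SCR range and the other KD libraries below it (log2 change -0.19 ± 0.10 SE, 95% interval -0.41 to 0.04, edgeR adjusted p = 0.191). These intervals leave room for a fall of FGFRL1 or a rise of FGFR4 of the size called for FGFR2 and FGF2.

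**Figure D2:**
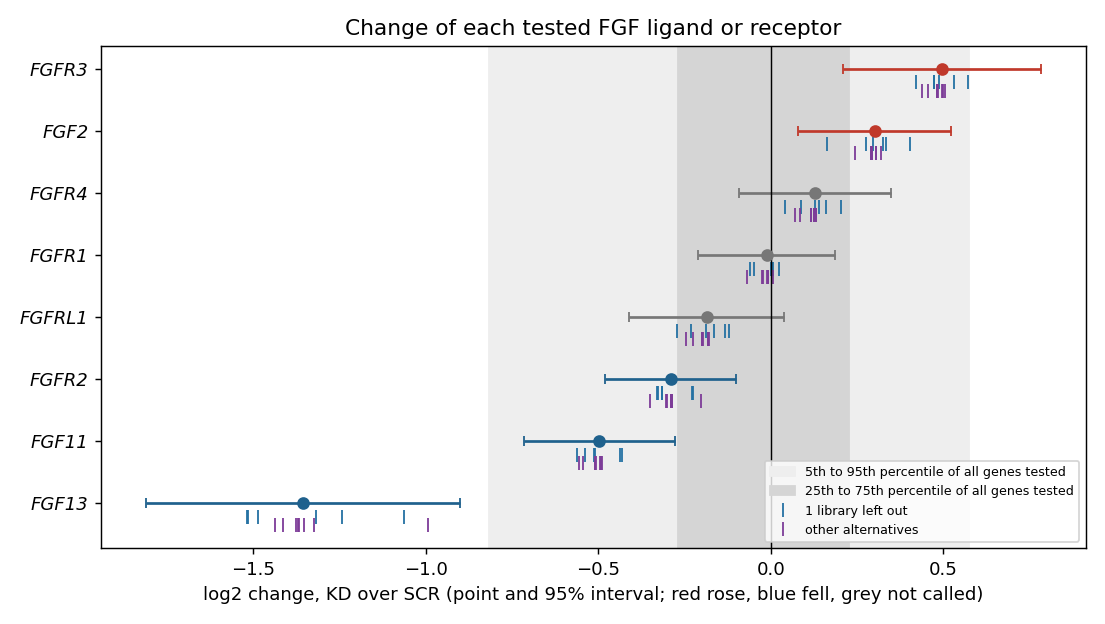
Log2 change of each tested gene, KD over SCR (x axis): points with 95% intervals from the edgeR fit (red rose, blue fell, grey not called), with ticks below them for the value with 1 library left out and under the other alternatives, over the 5th to 95th and 25th to 75th percentiles of all 14673 genes tested. FGF13 lies outside the 5th to 95th percentile range at -1.36, and the other called genes lie within it.

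Levels of different genes were compared per length, as CPM per kilobase of the gene's principal transcript in GENCODE 29. Where several coding transcripts of a gene are marked as principal, their median length was used. In SCR, FGFR2 was highest at 44.0 ± 3.42 CPM per kilobase, followed by FGFRL1 at 11.5 ± 0.782, FGF11 at 10.4 ± 0.771, FGF2 at 9.75 ± 0.354, FGFR4 at 7.90 ± 0.393, FGFR1 at 4.77 ± 0.273 and FGFR3 at 1.69 ± 0.0778 (SD, n = 3 each). FGFRL1, FGF11 and FGF2 were neighbours whose SDs overlapped, while FGFR2 stood well above the rest. In KD the order was FGFR2 (36.02 ± 2.58), FGF2 (12 ± 1.80), FGFRL1 (10.2 ± 1.29), FGFR4 (8.63 ± 0.882), FGF11 (7.28 ± 0.727), FGFR1 (4.72 ± 0.203) and FGFR3 (2.35 ± 0.292), with overlapping SDs between each neighbouring pair from FGF2 down to FGF11. FGF13 was not placed in this order, because its level depends on the transcript assumed. That level was 0.699 CPM per kilobase in SCR with its principal transcript length of 19519 bases. With the median length of its coding transcripts, 1102 bases, it was 12.4. FGFR4 was also sensitive to the length, at 27.1 CPM per kilobase in SCR with its median coding length of 838 bases, above FGFRL1 (15.7) and second to FGFR2 (47.0) on that scale. With the union of all exons as the length, FGFR2 was still first (17.8 CPM per kilobase in SCR) and FGFR3 still below FGFR1 (1.499 against 2.03, though 2.08 against 2.01 in KD), but FGF2 (7.58) moved above FGFRL1 (7.50) and FGF11 (5.71).

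Among the 4 kinase receptors, FGFR2 held the largest share of the summed level per kilobase, and the size of that share depended on the length assumed. By principal transcript it was 74.5%, 75.3% and 76.3% in SCR and 71.0%, 66.0% and 71.8% in KD, lower in every KD library. FGFR3 took 2.90% ± 0.266 in SCR and 4.55% ± 0.678 in KD, FGFR4 13.6% ± 0.488 and 16.7% ± 2.09, and FGFR1 8.18% ± 0.312 and 9.14% ± 0.650 (SD, n = 3 each). The summed level of the 4 was 55.6 to 62.8 CPM per kilobase in SCR and 50.1 to 52.9 in KD. By exon union length the FGFR2 share was 68.3% ± 1.03 in SCR and 61.1% ± 3.59 in KD, and by median coding length 55.7% ± 1.15 and 48.8% ± 3.85, with FGFR4 at 32.2% ± 0.846 and 37.5% ± 3.37. The shares of the 4 add to a fixed total, so a lower FGFR2 share raises the others.

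**Figure D3:**
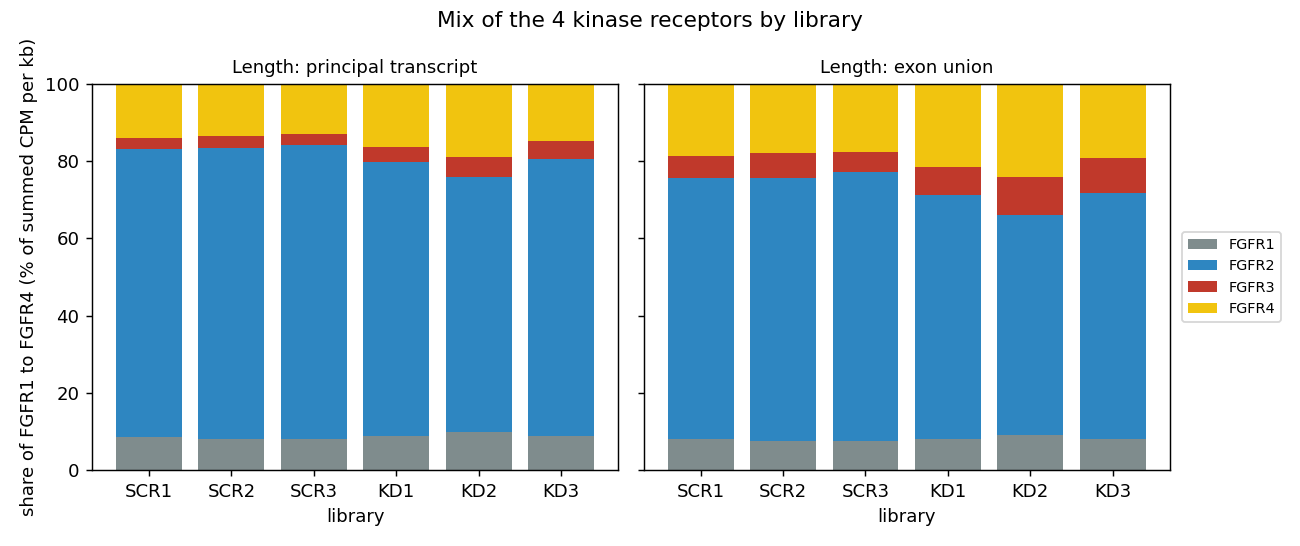
Share of FGFR1 to FGFR4 in each library (y axis, % of their summed CPM per kilobase), with lengths from the principal transcript (left) and from the union of exons (right). FGFR2 holds the largest share in each of the 6 libraries, from 66.0% to 76.3% on the left scale, and its share is lower in the KD libraries.

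The remaining genes of the FGF ligand family were mostly silent. Of 17 other ligand genes 4 passed the filter and 8 had 0 counts in all libraries. FGF18, a secreted ligand, had 0 counts in each SCR library and 6, 16 and 25 counts in KD libraries 1 to 3, or 0.780, 0.835 and 1.30 CPM. It passed the low-count filter through its KD counts alone, so its call (edgeR adjusted p = 0.000185) describes these counts and is no separate support. The 3 counts that a count of 0 allows over the SCR group are 0.0541 CPM. The pooled KD level, 1.02 CPM from 47 counts, was 18.9-fold above that limit. This ratio leaves out the counting error of the KD level, so it is not a lower bound. The filter of at least 1 CPM in 3 libraries removed FGF18, and the 13 alternatives that gave it a value kept the call. NPM1, an abundant nucleolar chaperone gene on the same strand, ends 8518 bases before the start of FGF18 and was at 2524 to 3091 CPM in SCR and 3192 to 3998 CPM in KD (edgeR adjusted p = 0.0264). NPM1 was looked up after the FGF18 values had been seen, and its part in the FGF18 counts was not tested. The NPM1 call was lost without SCR library 2 (adjusted p = 0.0983, log2 change 0.33 in place of 0.34), SCR library 3 (0.115, 0.28), KD library 2 (0.0538, 0.24) or KD library 3 (0.0595, 0.36), and with upper-quartile scaling (0.0547, 0.29).

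The hormone-like FGFs were not alike: FGF19 had 0 counts in all libraries, FGF21 fell, and the call of FGF23 depended on the libraries used. FGF21, a stress-induced metabolic hormone, had 18, 70 and 37 counts in SCR and 2, 2 and 0 in KD (edgeR adjusted p = 0.000367). FGF23, the phosphate-regulating hormone, had 15, 16 and 12 counts in SCR and 0, 1 and 9 in KD (adjusted p = 0.0314), so KD library 3 lay nearer to SCR than the other KD libraries. Both FGF21 and FGF23 passed the low-count filter through their SCR counts alone, so their calls describe these counts and are no separate support. The FGF23 call was lost without SCR library 1 (adjusted p = 0.0781, log2 change -1.74 in place of -1.83), SCR library 2 (0.0826, -1.83), SCR library 3 (0.0601, -1.93), KD library 1 (0.0737, -1.55) or KD library 2 (0.148, -1.25), and with DESeq2 (0.0609). Without KD library 3 its log2 change was -4.15. The hormones' co-receptors were hardly detected, with KLB at 1 count in each SCR library and 0 in each KD library. Of the other homologous factors, FGF12 went from 0.875 ± 0.203 to 0.452 ± 0.184 CPM (SD, n = 3 each) and was not called (edgeR adjusted p = 0.119), although every KD library was lower. FGF14 had 1, 2 and 2 counts in SCR and 0 in each KD library and was not tested.

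Sodium channel genes, whose proteins the homologous factors bind, gave 0 rises and 3 falls of 7 tested among 12 listed (42.9% called, against 31.7% of all genes tested). SCN3B, a channel beta subunit, was at 0.714 ± 0.161 CPM in SCR and 0.243 ± 0.0300 CPM in KD (SD, n = 3 each, edgeR adjusted p = 0.0151), and MAPK8IP2, a scaffold that binds FGF12 and its relatives, fell 2.02-fold to 1.07 ± 0.319 CPM (adjusted p = 0.0192). SCN3B passed the low-count filter through its SCR counts alone, so its call describes these counts and is no separate support. The call of SCN3B was lost without SCR library 2 (adjusted p = 0.0902, log2 change -1.37 in place of -1.56), without KD library 3 (0.0738, -1.45) and with DESeq2 (0.0952). That of MAPK8IP2 was lost without SCR library 3 (0.0693, -0.96 in place of -1.01), KD library 2 (0.0580, -0.96) or KD library 3 (0.0851, -0.87).

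Among the heparan sulphate proteoglycans, the heparan sulphate enzymes, and the FGF co-receptors and binding proteins, 0 genes were called higher. Of 11 heparan sulphate proteoglycans tested, 7 fell (63.6% called), with a median log2 change of -0.36. HSPG2, the basement membrane proteoglycan perlecan, fell 2.35-fold from 64.8 ± 21.8 to 27.9 ± 3.29 CPM (SD, n = 3 each, edgeR adjusted p = 0.000357), and AGRN, agrin, 1.68-fold (adjusted p = 0.000538). GPC2, a glypican, fell 1.69-fold (adjusted p = 0.00961), a call lost without SCR library 2 (0.0708, log2 change -0.58 in place of -0.76) or KD library 3 (0.0544, -0.64). Of 16 heparan sulphate enzymes tested 4 fell, or 25% called against 31.7% of all genes tested, among them GLCE, an epimerase, from 147.6 ± 9.497 to 108.3 ± 2.71 CPM (adjusted p = 0.00132), SULF1, an extracellular sulphatase, 1.33-fold (adjusted p = 0.00249), and EXTL3, a chain-initiating transferase, 1.27-fold (adjusted p = 0.00660). Of 7 co-receptors and binding proteins tested 4 fell (57.1% called). NCAM1, a neural adhesion molecule that binds FGF receptors, went from 85.1 ± 9.35 to 55.8 ± 2.95 CPM (adjusted p = 0.000482), GLG1, a Golgi FGF-binding protein, fell 1.36-fold (adjusted p = 0.00319) and CDH2, N-cadherin, 1.27-fold (adjusted p = 0.00981). With gene-span offsets CDH2 was not called (adjusted p = 0.141, log2 change -0.16).

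Inside the cell, the adaptor genes gave 3 rises and 7 falls of 18, and the RAS to ERK genes 2 rises and 2 falls of 15. The shares called were 55.6% and 26.7%, against 31.7% of all genes tested. The docking proteins GAB1 (17.5 ± 2.46 to 9.80 ± 0.926 CPM, SD, n = 3 each, edgeR adjusted p = 0.000474) and GAB2 (1.53-fold, adjusted p = 0.00107) fell, as did PLCG2, a phospholipase C, 2.30-fold (adjusted p = 0.000818). FRS2, the main FGF receptor docking protein, was at 37.1, 34.2 and 33.3 CPM in SCR and 41.9, 38.2 and 49.0 CPM in KD (adjusted p = 0.0340), while its relative FRS3 was at 8.25, 8.26 and 8.83 CPM in SCR and 5.98, 6.68 and 4.95 CPM in KD (adjusted p = 0.0153). These 2 were chosen after their values were seen. The FRS2 call was lost without SCR library 2 (adjusted p = 0.120, log2 change 0.29 in place of 0.31), SCR library 3 (0.112, 0.27), KD library 1 (0.0610, 0.33) or KD library 3 (0.215, 0.18) and with upper-quartile scaling (0.0735, 0.25). The FRS3 call was lost without SCR library 3 (0.0537, -0.50 in place of -0.53) or KD library 3 (0.0767, -0.41). HRAS, a RAS GTPase, rose from 25.9 ± 3.09 to 39.1 ± 2.702 CPM (adjusted p = 0.000970), NRAS 1.26-fold (adjusted p = 0.0124), and KSR1, a RAF and MEK scaffold, fell 1.51-fold (adjusted p = 0.00121). NRAS was not called without SCR library 2 (adjusted p = 0.0802, log2 change 0.30 in place of 0.34), SCR library 3 (0.0548, 0.30) or KD library 3 (0.0803, 0.26).

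Feedback inhibitors and ETS factors, the transcripts that FGF and other ERK signals switch on, gave 4 rises and 0 falls of 16 tested. For the feedback inhibitors the share called was 21.4%, below the 31.7% of all genes tested, and 1 of 2 ETS factors was called. SPRY2, a Sprouty inhibitor, was at 21.7, 20.5 and 18.6 CPM in SCR and 37.5, 34.1 and 42.1 CPM in KD (edgeR adjusted p = 8.33e-05), and SPRY4 rose 2.26-fold (adjusted p = 0.000239). DUSP5, an ERK phosphatase, rose 1.86-fold (adjusted p = 0.000810) and ETV4, an ETS factor, 3.04-fold (adjusted p = 3.27e-05). The other 12 were not called, ETV5 among them (12.5, 16.5 and 15.4 CPM in SCR, 15.2, 12.5 and 15.5 CPM in KD). In all, 10 genes rose and 29 fell of 94 tested in these other pathway lists, which is 41.5% called against 31.7% of all genes tested. These counts include FGF18, which passed the filter through its KD counts alone. They also include FGF21, FGF23 and SCN3B, which passed it through their SCR counts alone.

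**Figure D4:**
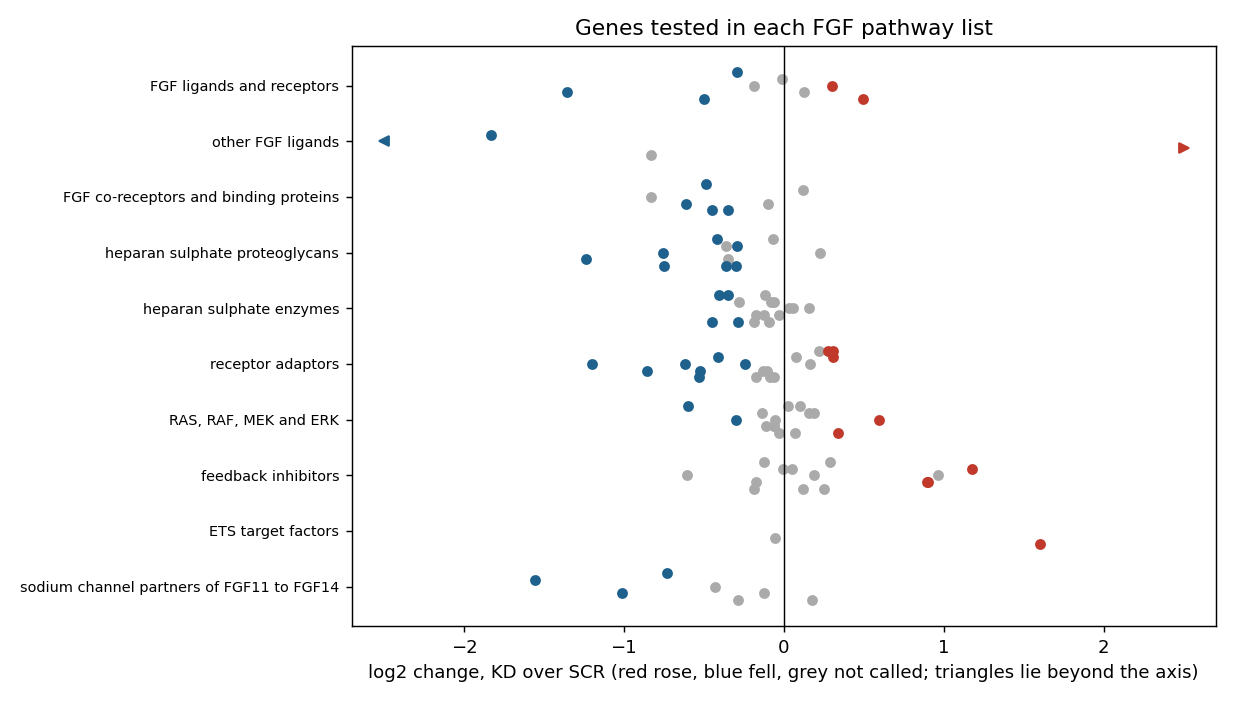
Log2 change, KD over SCR (x axis), of each gene tested in the FGF lists (rows), with called genes in red (rose) or blue (fell), others in grey, and triangles for FGF18 and FGF21, which lie beyond the axis. Proteoglycans and co-receptors hold blue points and 0 red ones, and feedback inhibitors and ETS factors hold red points and 0 blue ones.

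The genes whose levels followed the 2 homologous factors most closely over the 6 libraries were found by the root mean square difference of log2 CPM, each gene centred on its own mean, among 10845 genes with a mean of at least 5 CPM. For FGF13 they were RAB26 (difference 0.191), ABCC8 (0.199) and SLC13A2 (0.201), and for FGF11 they were OLFM2 (0.0235), GALT (0.0295) and PARVB (0.0311). RAB26 encodes a small GTPase of vesicles, ABCC8 a subunit of ATP-sensitive potassium channels, SLC13A2 a dicarboxylate transporter and GALT an enzyme of galactose use. All 6 fell in KD, with log2 changes of -1.36 for RAB26, -1.26 for ABCC8, -1.72 for SLC13A2, -0.54 for OLFM2, -0.50 for GALT and -0.50 for PARVB. The likeness rests largely on the group difference that the 6 libraries share, and it is a description without a test.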

How the data were processed

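Per the labels' protocols, miRNeasy Micro kits gave the RNA of D283 Med cells, and TruSeq Stranded mRNA kits the libraries. The submitters' processing notes name Trim Galore 0.6.4, STAR 2.7.9a, RSEM and the genome build GRCh38.p13. The sources used here give no annotation, RSEM version or strand setting. Each file deposited by the authors holds whole-number counts for 60708 genes, and 44 pseudoautosomal Y copies were added to their X copies. If the counts are rounded RSEM estimates, reads shared by overlapping genes were divided among them.

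Symbols came from a table of gene IDs, and coordinates and lengths from GENCODE 29 (GRCh38, 1-based). SCR and KD were compared with edgeR 4.0.16 in R 4.3.3 (filterByExpr, TMM, glmQLFit and glmQLFTest, no covariate, 2-sided). Adjusted p-values are Benjamini-Hochberg values over 14673 genes. Dividing the absolute log2 change by √F gave each SE. Replicate pairs differed beyond sampling noise, with chi-square statistics of 2.81 to 16.5 times their degrees of freedom.

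The members and lists were chosen with earlier results of these data known. Named were all members, up to 3 called genes per pathway list by adjusted p, other ligands that passed the filter, overlapping genes and the 3 nearest patterns of the 2 members with the smallest adjusted p. Some results that this rule or the marker lists would name are not reported here. Promoter sequences were found for 7 of the 10 members. Alternatives were RLE and upper-quartile scaling, 2 other filters, DESeq2 1.42.0, limma-voom (limma 3.58.1), a replicate block, leaving out each library, gene-span offsets and an adjusted p under 0.01. The exon union and the median coding transcript as lengths were added after seeing the data. Figures used matplotlib 3.10.9.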

Additional observations from a re-analysis of the deposited data

How the results depend on the processing

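Of the 5 called genes, FGF13, FGF11 and FGFR3 kept their direction and their call in all 14 alternatives at the 0.05 threshold. FGF2 lost its call in 5 of them and FGFR2 in 3, and neither changed direction. FGFR1, FGFR4 and FGFRL1 were called in none. FGFR1 had a log2 change of -0.07 to 0.02 over the 14. Leaving out 1 library at a time gave 3 to 5 called members, 2704 to 5114 called genes in all and 26 to 38 called genes in the other pathway lists. The fewest members, 3, were left without SCR library 3. With an adjusted p under 0.01, 2 members, 24 other pathway genes and 2459 genes in all were called. The replicate block gave 5 members, 40 other pathway genes and 4742 genes in all, and it changed no member's call. Same-numbered libraries did not deviate together (correlations over genes of -0.127, 0.127 and -0.0026), so the numbers were not treated as pairs. KD library 1 has the fewest counts (7765826), and without it 4 members were called. Genes under about 1 CPM, such as FGF8, FGF12 and FGF18, rest on a few counts per library.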
